A study of Rattus norvegicus with 6 samples.

Results

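Receptors for neurotransmitters are the proteins by which a neuron reads the signals of other neurons. REST (RE1-silencing transcription factor) is a zinc finger protein that binds a DNA element called RE1 and recruits corepressors, and it is known for keeping genes of neuronal function silent in cells that are not neurons, neural stem cells among them. Several receptor genes, such as the NMDA receptor subunit Grin1 and the muscarinic receptor Chrm4, are long-known carriers of RE1 elements. The receptors fall into ion channels that open when a transmitter binds (ionotropic glutamate, GABA-A, glycine, nicotinic and the serotonin receptor Htr3a) and receptors that act through G proteins (metabotropic glutamate, GABA-B, muscarinic, dopamine, adrenergic, most serotonin and all of the opioid and galanin receptors).

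REST binding was measured by ChIP-seq in HCN cells, a single line of neural stem cells derived from adult rat hippocampus and used at multiple passages. The cells were kept proliferating with FGF2 (TAP condition) or were made quiescent with FGF2 and BMP4 together (iQNP condition). Each condition had 1 library with a commercial REST antibody, 1 library with a mix of the homemade antibodies REST14 and REST17, and 1 input library. The receptor sites are those whose nearest gene in the study's annotation has a symbol of a glutamate (Gria, Grin, Grik, Grid, Grm), GABA (Gabr, Gabbr), glycine (Glra, Glrb), acetylcholine (Chrn, Chrm), serotonin (Htr), dopamine (Drd), adrenergic (Adra, Adrb), P2X (P2rx), neuropeptide Y (Npy), somatostatin (Sstr), opioid (Opr) or galanin (Galr) receptor. They numbered 46 of the 1775 iQNP sites, at 37 genes, and 29 of the 778 TAP sites, at 28 genes, for 38 genes in all. One of these genes, Grid2ip, is not a receptor but encodes a receptor-interacting protein, and its symbol meets the same rule. "Nearest gene" means only that the gene's transcription start site (TSS) was the closest to the site, and the site may lie far away or inside another gene.

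The 4 libraries had depths between 25.2 and 29.8, in units of 1000000 tags, and normalized tags are tags per 10000000 tags of the library. All deposited sites exceeded the input at least 4.01-fold with both antibodies. Total tags at receptor sites ranged from 14 to 478 per library in iQNP and from 14 to 180 in TAP. The commercial antibody gave more normalized tags than the homemade antibodies at 42 of the 46 receptor sites in iQNP, against 83.3% of all iQNP sites, and at 21 of the 29 in TAP, against 73.4% of all TAP sites. The labels name no separate cultures, so p-values measure the spread between a condition's 2 libraries, which were made with different antibodies, and that spread may otherwise be technical. ChIP tags carry no expression values, so the identity of the cells was not checked against marker genes.

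Of 124 protein-coding genes of these families in RefSeq, 36 (29.0%) were the nearest gene of an iQNP site and 28 (22.6%) of a TAP site. Over all protein-coding genes these shares were 5.75% in iQNP and 2.73% in TAP. A nearest-gene count favours genes with long intergenic neighbourhoods, and no test was made of these shares. The dopamine receptors had the highest share among families of more than 2 genes, with iQNP sites at 4 of 5 genes (Drd1a, which RefSeq calls Drd1, Drd2, Drd3 and Drd5 but not Drd4). GABA-B receptors had a site at 1 of 2 genes, glycine receptors at 2 of 5, muscarinic receptors at 2 of 5, ionotropic glutamate receptors at 7 of 18, GABA-A receptors at 7 of 19, serotonin receptors at 5 of 14 and metabotropic glutamate receptors at 2 of 8. Nicotinic receptors had 3 of 16, the adrenergic receptors 1 of 9 and the neuropeptide receptors 2 of 16. None of the 7 P2X channels, which open on ATP, was the nearest gene of a site in either condition, nor was any somatostatin or neuropeptide Y receptor.

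**Figure D1:**
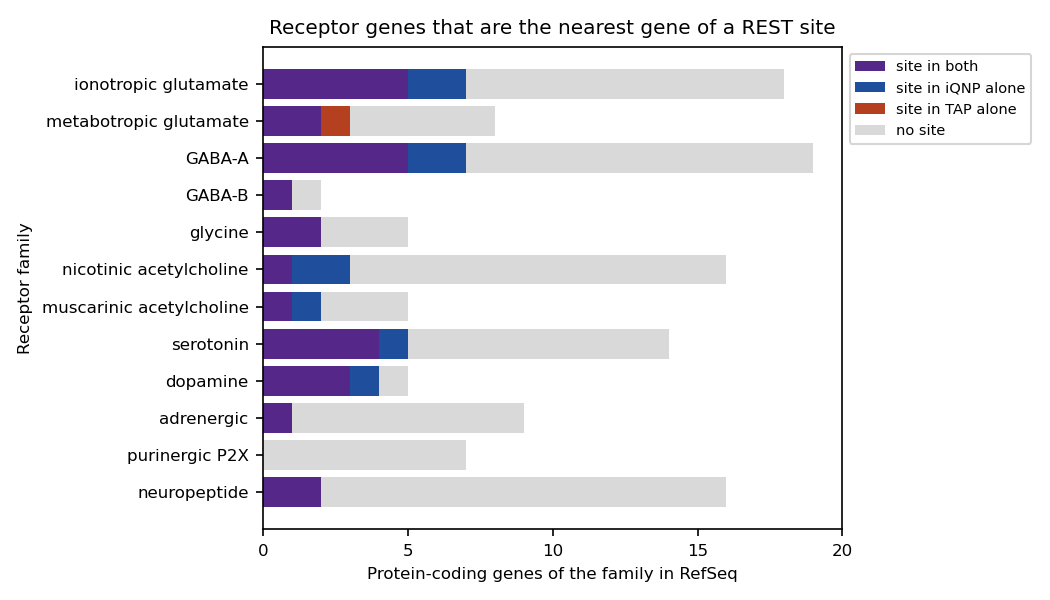
Horizontal bars give the number of protein-coding RefSeq genes in each receptor family (x axis, genes), divided by colour into genes that were the nearest gene of a REST site in both conditions, in iQNP alone, in TAP alone, or in neither. Dopamine receptors had iQNP sites at 4 of 5 genes and P2X receptors at 0 of 7.

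Ionotropic glutamate receptors carry most fast excitation in the brain. Their iQNP site with the most tags lay in the first exon of Grin1, the obligate subunit of NMDA receptors, 187 bp into the gene in its 5' UTR (rn4 chr3:3480264-3480325). In iQNP it had 49.0 normalized tags (commercial antibody) and 34.6 (homemade antibodies), and in TAP 34.2 and 26.2. Pairs of values below keep this order of antibodies. The homemade iQNP library thus barely exceeded the commercial TAP library, and the log2 change from TAP to iQNP, 0.47 ± 0.42 (SE), did not pass the test (edgeR adjusted p = 0.279). The promoter site of Gria2, the AMPA subunit that limits calcium entry, lay 177 bp before the TSS (chr2:172385425-172385498). Its tags were 25.5 and 20.8 in iQNP and 13.6 and 12.7 in TAP. The change there of 0.81 ± 0.38 just missed the threshold (adjusted p = 0.0512).

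The kainate receptor genes Grik3 and Grik4 and the NMDA subunit Grin2a had their sites far from the TSS. Grik4 had a pair of sites, both called in TAP. The intergenic one, 154163 bp upstream of the TSS (chr8:45835382-45835450), had 38.3 and 23.8 tags in iQNP and 10.9 and 7.54 in TAP, and the one in intron 5 (chr8:45644844-45644925) had 23.4 and 19.8 in iQNP and 10.1 and 9.93 in TAP. The upstream site had the largest change among the receptor sites, 1.74 ± 0.41 on the log2 scale (adjusted p = 0.000515), and it ranked 32 among the 756 shared sites. The intron 5 site changed by 1.10 ± 0.39 (adjusted p = 0.0116). Grin2a had 22.3 and 13.4 tags in iQNP and 5.83 and 5.96 in TAP at a site in intron 3 (chr10:5741163-5741236), a change of 1.59 ± 0.39 (adjusted p = 0.000752), and a second site with 13.8 and 11.4 tags in iQNP that had no TAP site (chr10:6055150-6055226). Grik3 had sites in its first intron, 12285 bp (chr5:144854630-144854688) and 99048 bp (chr5:144941393-144941451) from the TSS. The nearer had 28.0 and 17.8 tags in iQNP and 9.72 and 9.93 in TAP, while the farther had 5.68 and 5.71 in iQNP, the lowest mean of all receptor sites, and no TAP site. The single sites of Grik2 and Grid2ip had means of 6.91 and 9.01 normalized tags in iQNP and no TAP site.

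Metabotropic glutamate receptors tune excitability through G proteins. Their iQNP site with the most tags was the intergenic site 7100 bp upstream of Grm5 (chr1:143850096-143850153), with 22.3 and 17.5 tags in iQNP and 8.17 and 8.34 in TAP, a change of 1.26 ± 0.39 (adjusted p = 0.00468). Grm7 was the nearest gene of a pair of intergenic sites that the annotation places 827361 bp (chr4:145505183-145505251) and 628170 bp (chr4:147418841-147418903) upstream of its transcripts. The first had 22 and 12.1 tags in iQNP and 7.39 and 6.75 in TAP, a change of 1.26 ± 0.38 (adjusted p = 0.00439), and the second had 6.39 and 5.37 in iQNP and no TAP site.

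GABA-A and glycine receptors are the chloride channels of fast inhibition. The promoter of Glra1, the adult glycine receptor alpha subunit, held the highest receptor site within 1 kb of a TSS (chr10:41021754-41021809, 15 bp before the TSS). Its tags were 135.2 and 77.9 in iQNP and 68.4 and 44.1 in TAP. Each antibody gave more tags in iQNP, but the commercial antibody in iQNP stood far above the homemade antibodies in the same condition, and the change of 0.92 ± 0.48 did not pass the test (adjusted p = 0.0737). A second Glra1 site, 69043 bp upstream (chr10:41090774-41090846), had 6.03 and 8.06 tags in iQNP and no TAP site. The promoter site of Glra3, 91 bp before the TSS (chr16:37741061-37741140), had 18.8 and 16.1 tags in iQNP and 6.22 and 5.56 in TAP. It had the lowest iQNP and the lowest TAP mean of the sites within 1 kb, and the largest change among them, 1.56 ± 0.39 (adjusted p = 0.000916).

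All 5 GABA-A sites shared between the conditions passed the test, as did 68.4% of all shared sites, and with DESeq2 Gabrd (adjusted p = 0.0507) and Gabrp (adjusted p = 0.0592) did not. Gabrd, the subunit of extrasynaptic receptors, had 26.6 and 21.2 tags in iQNP and 13.6 and 12.3 in TAP at a CpG-rich site in intron 1 (chr5:172214622-172214682), a change of 0.88 ± 0.39 (adjusted p = 0.0366). Gabra4 had the second largest change of the receptor sites, 1.70 ± 0.40 (adjusted p = 0.000628), with 26.6 and 25.2 tags in iQNP and 8.94 and 7.15 in TAP at a site in its last intron. The site assigned to Gabrp lay 135672 bp upstream of the Gabrp TSS, in intron 1 of another gene, Kcnip1. It had 23.4 and 15.8 tags in iQNP and 11.7 and 9.13 in TAP (change 0.91 ± 0.39, adjusted p = 0.0316). Gabrb2 and Gabrg1 had 1 site each in iQNP, with means of 6.07 and 11.4 tags, and none in TAP. Gabbr2, a subunit of the GABA-B receptor, had an intergenic site 1436 bp upstream (chr5:63613308-63613378) with 44.3 and 33.9 tags in iQNP and 15.2 and 21.4 in TAP, a change of 1.10 ± 0.42 (adjusted p = 0.0173).

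Acetylcholine receptors had 5 iQNP sites at 5 genes, and the 2 called in TAP lay close to a TSS. Chrnb2, a subunit of the main nicotinic receptor of the brain, had 71.3 and 52.0 tags in iQNP and 42.0 and 28.2 in TAP in the 5' UTR of its first exon (chr2:181969434-181969488). The change was 0.81 ± 0.44 (adjusted p = 0.0856). Chrm4, a muscarinic receptor, had 21.6 and 14.4 tags in iQNP and 12.1 and 11.5 in TAP at a promoter site 840 bp before the TSS (chr3:76301103-76301193), a change of 0.61 ± 0.38 (adjusted p = 0.129). Neither passed the threshold. The sites nearest to Chrna2 (in intron 24 of another gene, Ptk2b), Chrna7 and Chrm3 had means between 13.9 and 18.8 tags in iQNP and no TAP site.

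All 7 shared sites of serotonin and dopamine receptors passed the test, which 68.4% of all shared sites did. Htr1a, the autoreceptor of serotonin neurons, had the highest of them, intergenic and 1517 bp upstream (chr2:36432976-36433026), with 53.2 and 48.0 tags in iQNP and 28.0 and 17.1 in TAP (change 1.16 ± 0.43, adjusted p = 0.0151). Htr5a had 36.2 and 31.2 tags in iQNP and 11.7 and 14.7 in TAP at its promoter (chr4:2717491-2717549), a change of 1.35 ± 0.41 (adjusted p = 0.00388), and a weaker site 6814 bp upstream (chr4:2723722-2723793) with 8.87 and 6.72 tags in iQNP and none called in TAP. Htr7 and the ion channel subunit Htr3a had changes of 1.42 ± 0.39 and 1.06 ± 0.39, at sites 282115 and 12654 bp from the TSS. Htr4 had 4.97 and 7.72 tags in iQNP and no TAP site.

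Among dopamine receptors, Drd1a had the most tags, 48.6 and 33.2 in iQNP against 18.3 and 15.9 in TAP, at an intergenic site 113345 bp from the TSS (chr17:16769241-16769301; change 1.25 ± 0.42, adjusted p = 0.00787). Drd5 showed the largest change of the monoamine receptors, 1.53 ± 0.41 (adjusted p = 0.00134), from 10.9 and 11.1 tags in TAP to 40.8 and 23.2 in iQNP. Drd2, the receptor that antipsychotic drugs block, had 27.7 and 17.1 tags in iQNP and 9.72 and 9.53 in TAP in its first intron (chr8:52641944-52642005; change 1.21 ± 0.39, adjusted p = 0.00656). A second Drd2 site 69555 bp from the TSS (chr8:52710676-52710754) had 19.9 and 13.8 tags in iQNP and no TAP site, and Drd3 had 10.3 and 9.07 tags in iQNP and no TAP site. The single adrenergic site, 21109 bp from the TSS of Adra2c (chr14:81088461-81088541), had the lowest iQNP mean of the shared receptor sites, 13.8 and 15.8 tags against 9.72 and 8.34 in TAP (change 0.71 ± 0.37, adjusted p = 0.0766).

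The highest receptor site of all belonged to a neuropeptide receptor. Galr1, a galanin receptor, had 168.9 and 105.8 tags in iQNP and 70.0 and 46.1 in TAP at an intergenic site 14647 bp upstream (chr18:78889069-78889127), ranked 17 of 1775 in iQNP and 26 of 778 in TAP. Its change was 1.24 ± 0.50 (adjusted p = 0.0236). A second site 316609 bp away (chr18:78557798-78557885) had 28.0 and 15.1 tags in iQNP, the most of any receptor site without a TAP site. Oprm1, the mu opioid receptor through which morphine acts, had 42.9 and 30.9 tags in iQNP and 27.2 and 19.5 in TAP in the first exon of a non-coding transcript, 189 bp from the TSS (chr1:37535575-37535635), and its change of 0.66 ± 0.41 did not pass the test (adjusted p = 0.125).

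**Figure D2:**
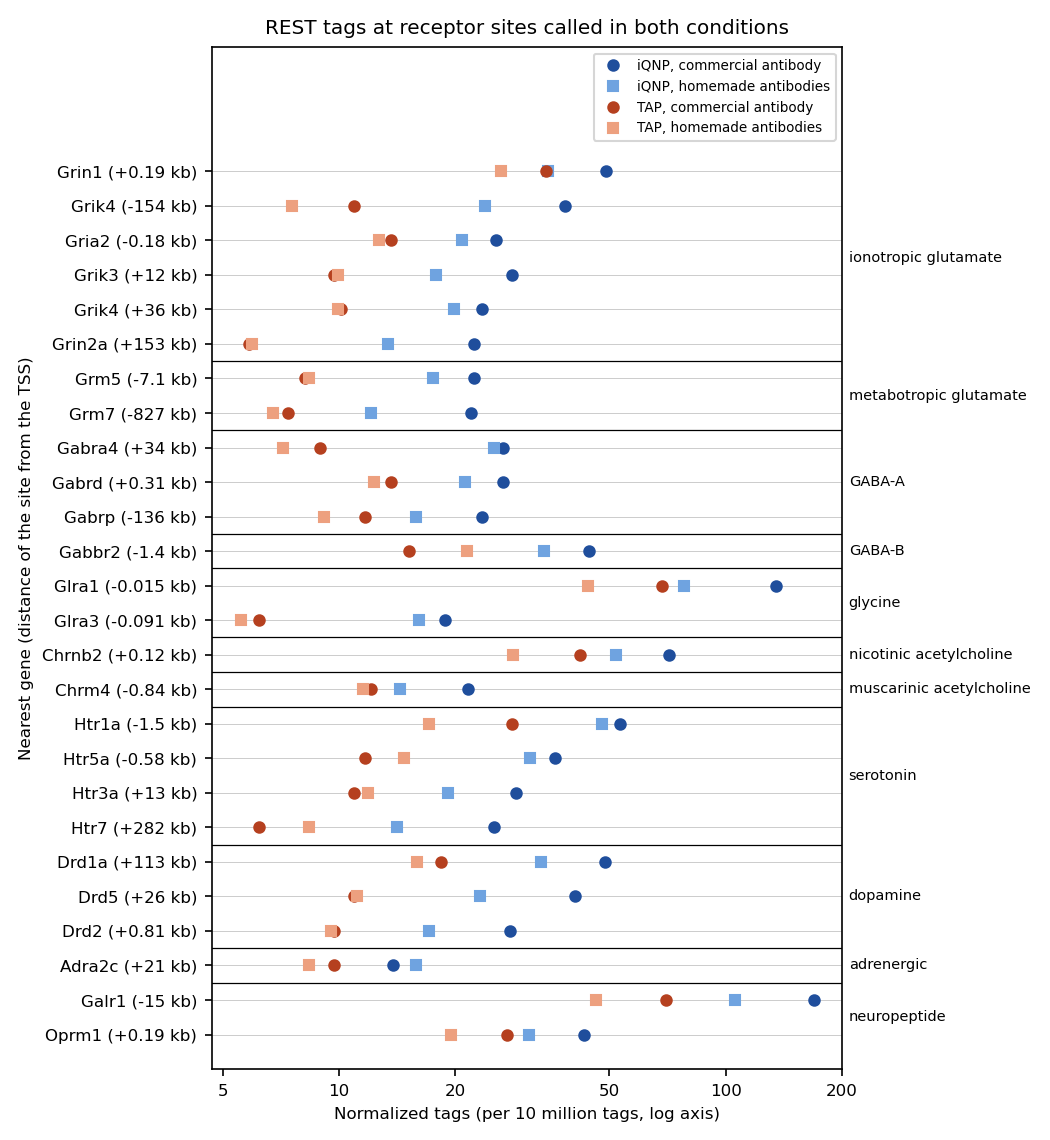
Each row is 1 of 26 of the 28 receptor sites called in both conditions, grouped by receptor class, and the x axis gives normalized tags per 10000000 tags on a log scale, with blue for iQNP, red for TAP, circles for the commercial antibody and squares for the homemade antibodies. With either antibody the iQNP symbol lies to the right of the TAP symbol in all 26 rows, from Adra2c and Glra3 at the low end to Glra1 and Galr1 at the high end.

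Shared sites are those with centres within 50 bp in both conditions. Of the 46 receptor sites in iQNP, 28 (60.9%; 95% Wilson interval, 46.5 to 73.6) had a TAP site, against 42.6% of all iQNP sites, and every TAP partner carried the same gene name. Intervals cover counting error only. Read from TAP, 28 of the 29 receptor sites had an iQNP site, as did 756 of all 778 TAP sites. The share rose with tags. Of receptor sites with a mean of up to 10 normalized tags in iQNP, 0 of 10 had a TAP site (Wilson upper limit 27.8%; all iQNP sites, 1.2%), of those with over 10 and up to 20, 8 of 14 had one (26.3%), and of those with over 20, 20 of 22 (76.4%). The distant site of Galr1 was 1 of the 2 exceptions with over 20. None of the 18 receptor sites without a partner had a TAP site within 6 kb. In the TAP libraries the weakest called site had 12 total tags, and no tags are given there for iQNP sites that were not called.

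Receptor sites and all sites differed most in their shares close to a TSS. All 12 receptor sites within 1 kb of a TSS (those of Grin1, Gria2, Gabrd, Glra1, Glra3, Chrnb2, Chrm4, Htr5a, Drd2 and Oprm1 among them) were called in TAP too, against 32.8% of all iQNP sites within 1 kb. The receptor sites there had a median of 31.4 normalized tags in iQNP, against 17.4 for all such sites. All 12 had at least 15 tags, and of all sites within 1 kb with at least 15 tags, 56.3% had a TAP site. Over 1 kb from the TSS, 16 of 34 receptor sites (47.1%) had a TAP site, close to the 44.9% of all iQNP sites there. The median receptor site lay 14.8 kb from the TSS in iQNP and 1.51 kb in TAP, against 34.2 and 36.3 kb for all sites. No test was made of these shares, because the receptor genes were chosen with earlier results of these data known. Within 10 kb of a TSS, 19 of the genes (Grid2ip, not a receptor, among them) had a site in iQNP and 16 in TAP, and 15 had one in both. Of the 124 receptor genes in RefSeq these were 18 and 16, against 565 and 229 of all 23154 protein-coding genes. The overlap within 10 kb was not counted over all genes.

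**Figure D3:**
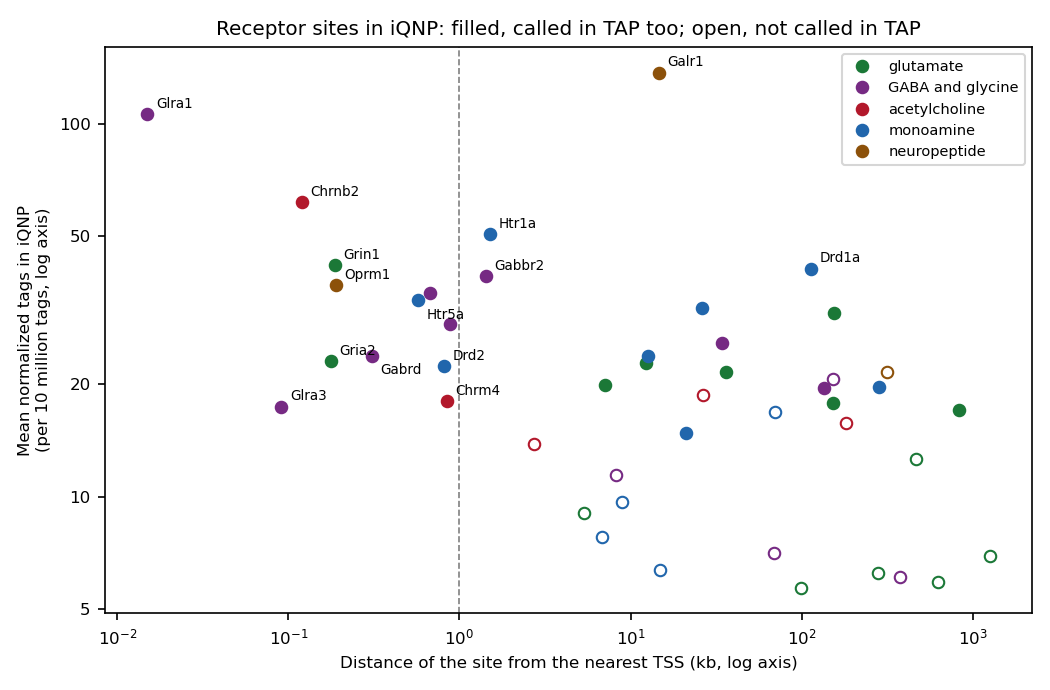
Each point is 1 of the 46 receptor sites in iQNP, placed by its distance from the nearest TSS (x axis, kb, log scale) and its mean normalized tags of both antibodies (y axis, log scale), coloured by transmitter (Grid2ip is among the glutamate points) and filled when the site was also called in TAP. All 12 points left of the dashed line at 1 kb are filled, and the 10 points with up to 10 tags are all open.

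**Figure D4:**
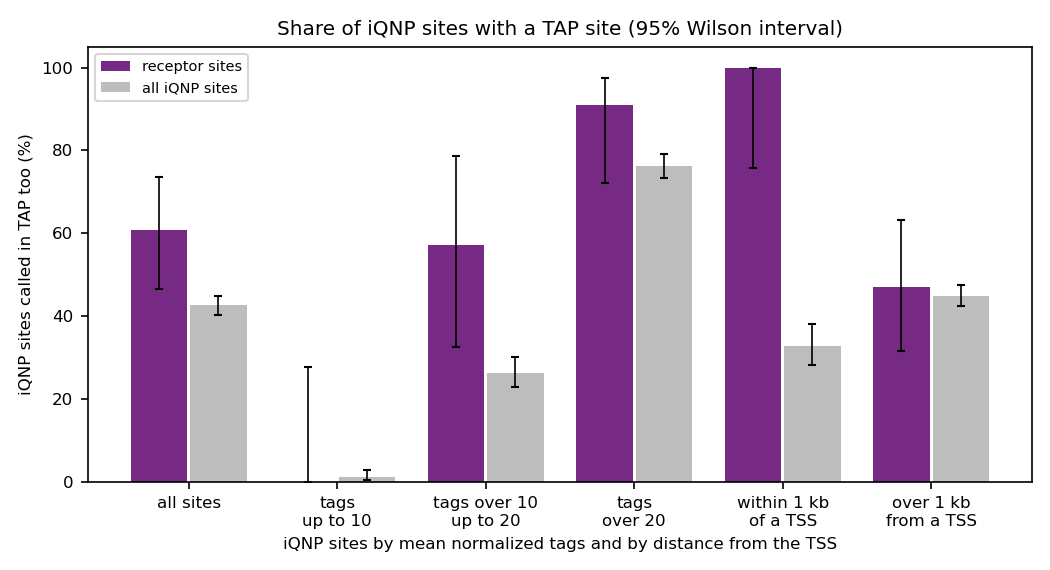
Bars give the percentage of iQNP sites that had a TAP site within 50 bp (y axis) for receptor sites and for all iQNP sites, in classes of mean normalized tags and of distance from the TSS, with 95% Wilson intervals. Receptor sites reach 100% within 1 kb of a TSS, against 32.8% of all sites, and 47.1% against 44.9% beyond it.

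Among the 28 shared receptor sites, each antibody gave more normalized tags in iQNP than in TAP at every site, as at 745 of the 756 shared sites overall. The median log2 ratio was 1.19 for receptor sites (1.40 for the commercial and 0.86 for the homemade antibodies, SD 0.38) and 1.05 for all shared sites. When total tags were scaled to depth and tested with edgeR, 21 of the 28 had more tags in iQNP and 0 more in TAP at an adjusted p under 0.05, against 68.4% and 0% of all shared sites, so the receptor sites were called at a rate near that of the rest. No receptor site had more tags in TAP at an unadjusted p under 0.05 either. The 7 that did not pass were Grin1, Chrm4, Oprm1, Adra2c, Chrnb2, Gria2 and Glra1.

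All but Adra2c of these 7 lay within 1 kb of a TSS. There 6 of 12 receptor sites passed, against 48.7% of all shared sites within 1 kb, and over 1 kb 15 of 16 passed, against 71.9%. The median log2 ratios were 0.90 within 1 kb and 1.25 beyond for receptor sites, and 0.86 and 1.08 for all shared sites. All shared sites had the same order of ratios by distance, and the difference between the distances was not tested. Each antibody was used once per condition, and with the antibody as a block all 28 receptor sites passed with more tags in iQNP, against 94.8% of all shared sites, including the 12 within 1 kb (all sites there, 91.2%) and the 16 beyond (95.5%). The 7 sites above had adjusted p-values in that edgeR fit from 2.23e-06 at Glra1 to 0.038 at Chrm4. The block spends a further term on few libraries, so little is left to measure the spread. Deviations of same-antibody libraries correlated at 0.0445 over all shared sites and -0.0718 over shared receptor sites. Why the p-values fell with the block was not tested. Without the antibody term, DESeq2 with the depths called Glra1 (adjusted p = 0.0313) and Chrnb2 (0.0465). In edgeR on sites with at least 20 total tags in each library, Adra2c (adjusted p = 0.0374) and Gria2 (0.0433) passed. Grin1, Chrm4 and Oprm1 passed in neither fit. The call rests on how the libraries are scaled and on every TAP library. With TMM scaling over the shared sites, which moved the median log2 change of all of them from 1.05 to -0.01, 10 of the 28 turned negative (Grin1, Chrm4, Oprm1, Adra2c, Chrnb2, Gria2, Gabrd, Gabrp and Glra1 among them), Grik4 alone (its upstream site) passed with more tags in iQNP and Grin1 alone with more in TAP. Without either TAP library the spread rests on the iQNP antibodies alone, so no count of calls is given. The median log2 ratio was then 1.22 without the commercial and 1.15 without the homemade TAP library. Fold over input, which divides by 0.4 to 9.4 scaled input tags at the receptor sites, was lower in iQNP at 10 of the 28 sites (all shared sites, 25.8%), with 19.1- and 14.5-fold in iQNP and 86.2- and 121.9-fold in TAP at Gabbr2, where scaled TAP input was at the lowest values in the tables, 0.5 and 0.4 tags.

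**Figure D5:**
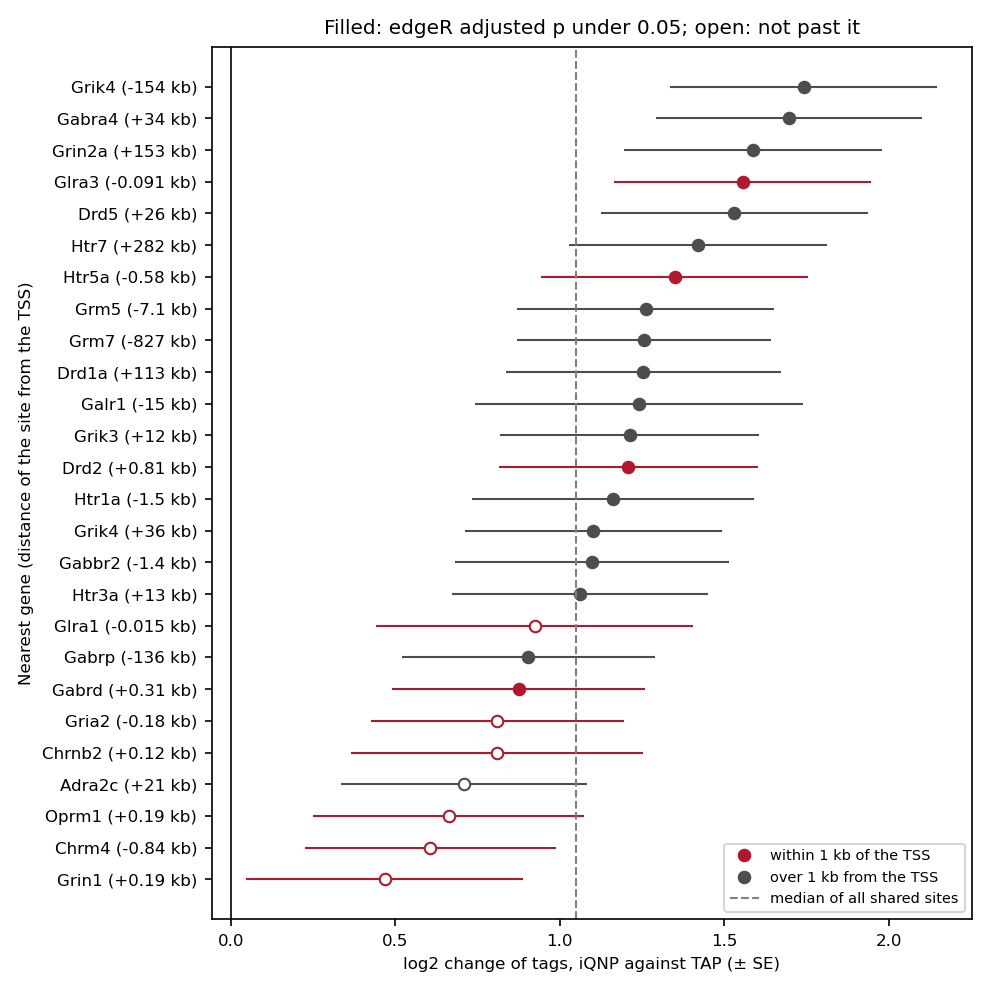
Points give the log2 change of tags from TAP to iQNP at 26 of the 28 shared receptor sites with their SE (x axis), ordered by size, in red within 1 kb of the TSS and grey beyond, filled at an edgeR adjusted p under 0.05. With tags scaled to depth the changes run from 0.47 at Grin1 to 1.74 at Grik4, and the dashed line marks the median of all shared sites, 1.05, which TMM scaling moves to about 0.

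Genes with 2 iQNP sites numbered 9 (Drd2, Galr1, Glra1, Grik3, Grik4, Grin2a, Grm7 and Htr5a among them). The site with more tags was called in TAP at all 9, and the weaker one at Grik4 alone. Over all iQNP sites too the share called in TAP rose with tags, from 1.2% at up to 10 tags to 76.4% at over 20. No such count was made for other genes with several sites. The stronger site was also the one closer to the TSS at 7 of the 9, Grik4 and Grm7 being the exceptions. The annotated distances of the Grm7 sites cannot be from the same TSS, so which of them is closer is not settled. The ratio of the stronger to the weaker mean ran from 1.33 at Drd2 to 15.1 at Glra1. Of the 28 genes with 1 site, 18 had it called in TAP, against 42.6% of all iQNP sites.

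RE1 letters were searched in RefSeq promoter windows of GRCr8, 250 bases before to 50 bases after the TSS, since no rn4 sequence was at hand. The search used the letter runs TTCAGCACC and GGACAGCGC with 2 free bases between them, on both strands, and allowed 4 mismatches over the 18 letters. Windows were found for 26 of the 38 genes, and 1 of them, that of Chrm4, held a match, against 0.543% of 27457 windows. The Chrm4 match is shown because it is the one receptor promoter match, with capitals for letters equal to the motif. It lies on the minus strand, 226 to 207 bases before the TSS at GRCr8 chr3:98348854-98348873.
Chrm4: TcCAGCtCCgaGGgCAcCGC
The called Chrm4 site lay 840 bp before the TSS in the rn4 annotation, farther than the window reaches. The TSS may differ between rn4 and GRCr8, so whether the match lies in the called site is not settled. By rn4 distances, Glra3 was the one receptor gene with both a window and a called site inside it. Its closest stretch differed from the motif at 7 letters. Of the windows of all genes with an iQNP site inside by these distances, 8.13% held a match. A window without a match lacks only these letters.

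Genes that serve the same transmitters were set beside the receptors as a list of 81 genes for receptor scaffolds and auxiliary subunits, transmitter synthesis, transporters and peptide ligands. Of these, 24 had an iQNP site and 20 a TAP site (all protein-coding genes, 5.75% and 2.73%), and 26 of their 33 iQNP sites were shared (all iQNP sites, 42.6%). Within 1 kb of a TSS, the sites of Tph2, Slc17a6, Sst, Crh, Slc6a5 and Pomc were shared and that of Vip was not. A high share of shared sites near a TSS was thus not particular to the receptors. Scaffold and auxiliary genes with an iQNP site were Cacng2, Cacng3, Cacng4, Cacng5, Cacng7, Dlg2, Dlgap2, Dlgap4, Grip1, Grip2, Neto1 and Shank2, 12 of 38 listed. Synthesis genes were Chat, Gad1 and Tph2 (3 of 11), transporters Slc17a6, Slc32a1, Slc6a11 and Slc6a5 (4 of 20), and peptide ligands Crh, Pdyn, Pomc, Sst and Vip (5 of 12). Somatostatin thus had a site while its receptors had none. The most tags were at Cacng2, an auxiliary subunit of AMPA receptors, with 316.1 and 191.0 in iQNP and 191.0 and 141.0 in TAP, Dlgap4, a scaffold protein of the postsynaptic density, with 110.0 and 91.0 against 40.4 and 40.9, and Slc32a1, the vesicular transporter of GABA and glycine, with 107.5 and 75.2 against 58.3 and 45.3. Of the 26 shared sites, 20 had more tags in iQNP by the same edgeR test and 0 more in TAP, near the 68.4% of all shared sites, with a median log2 ratio of 1.05.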

How the data were processed

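The authors aligned ChIP-seq reads with Bowtie2 to rn4, called peaks per library over input with HOMER (Poisson p-value limit 1e-04), and deposited 1 table per condition of peaks common to both antibodies. Per site and library, total tags are counts as deposited. The authors gave a signal scaled to 10000000 tags (normalized tags), a signal for input scaled to each ChIP library, and a ratio, the fold over input, with its p-value. Versions are not given in the sources used here. Nearest genes, positions and TSS distances came from the study's supplementary annotation, joined by merged peak name, with 1 repeated site dropped per condition. No gene name was given at 17 iQNP and 7 TAP sites.

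Depth was total over normalized tags. Sites were paired one to one, closest first, with centres within 50 bp. Total tags at all 756 shared sites were compared with edgeR 4.0.16 (R 4.3.3, quasi-likelihood, library sizes set to the depths, no term but condition, Benjamini-Hochberg over 756 sites). SEs are the log2 change over the square root of F. Shared sites were called in both conditions, so the ratios leave out sites not called in TAP. In a simulation of this comparison, 756 sites of which 200 changed by 2 on the log2 scale, 100% of the changed sites were recovered and 1.48% of calls were false. The largest receptor change was 1.74, and the simulation gave all libraries the same dispersion and no antibody effect. Its rates therefore do not tell how often smaller changes are missed or falsely called in these libraries. The libraries of a condition did not hold the same counts (chi-square per site 8.40 in iQNP and 1.89 in TAP). Wilson intervals came from Python 3.11.15 (scipy 1.17.1).

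The members, gene lists and tests were chosen with earlier results of these data known. Receptor genes are named under their class; values per library are given for each class's highest iQNP site, sites within 1 kb of a TSS, and genes with 2 sites, and for the 3 highest related genes. Results of some receptor genes are not reported here, though their sites stay in all counts, medians and fits. Per-library values of Gabra4, Gabrp, Htr4, Drd3 and Drd5 were added after they were seen. Families were counted in RefSeq, leaving out symbols that are no receptor (Grid2ip, Grina, Htra1, Htra2, Htra3, Htra4, Npy and Oprpn). Alternatives were TMM, DESeq2 1.42.0 (size factors from depths), a block for antibody, each library left out, at least 20 tags, centres within 25 or 200 bp, fold over input, a p-value of at most 1e-10, fold of at least 8, other TSS distances, 3 or 5 motif mismatches, and leaving out Grid2ip.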

Additional observations from a re-analysis of the deposited data

How the results depend on the processing

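The count of 21 shared receptor sites with more tags in iQNP became 1 under TMM and lay between 0 and 27 without single libraries (0 without either TAP library, with the lone TAP library assumed to vary like the iQNP pair). It stayed between 17 and 21 with other pairing distances, at least 20 tags, or DESeq2 with the depths. The median log2 ratio of 1.19 fell to 0.14 under TMM, was 0.85 for fold over input, and ran from 0.86 to 1.40 without single libraries. Under TMM the log2 changes of Grin1 (-0.59), Chrm4 (-0.45), Oprm1 (-0.39), Adra2c (-0.33), Chrnb2 (-0.24), Gria2 (-0.24), Gabrd (-0.18), Gabrp (-0.15) and Glra1 (-0.14) were among the 10 that reversed, since it centres the shared sites on 0. The split at 1 kb, added after seeing the data, gave 6 of 12 within and 15 of 16 beyond, against 48.7% and 71.9% of all shared sites. Under TMM these became 0 of 12 within and 1 of 16 beyond. Shares of all shared sites by distance were not taken under TMM. Replicate numbers mark the antibody in both conditions, and the deviations of same-numbered libraries correlated at 0.0445 over shared sites. With the replicate block 28 of 28 receptor sites passed, 12 of 12 within 1 kb and 16 of 16 beyond. The shares of all shared sites were 94.8%, 91.2% and 95.5% in that order. The 28 receptor iQNP sites with a TAP site became 24 at 25 bp, where the 756 of all iQNP sites became 627. They became 25 of 42 at a p of at most 1e-10 and 22 of 39 at a fold of at least 8. Genes with an iQNP site near the TSS fell from 19 within 10 kb to 12 within 1 kb. Median normalized tags of 11.4 in TAP were 11.5 and 11.7 with single antibodies, and the 19.8 in iQNP were 15.95 and 23.1. The motif match was lost (0) at 3 mismatches. The causes of the other shifts were not tested.

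How far depth sets which sites were called was not tested: receptor sites with up to 10 normalized tags in iQNP rest on 14 to 29 total tags per library, and the weakest site called in TAP had 12.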

Other observations

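Repeats held 5 of the 46 receptor sites in iQNP (10.9%), against 7.27% of all iQNP sites. Of these 5, 2 had a TAP site, against 27.9% of all 129 iQNP sites in repeats. Long terminal repeats of endogenous retroviruses held 3 of the 5, namely the highest receptor site, upstream of Galr1 (RMER19A), the site near Gabrg1 (RMER6C) and the site near Chrm3 (RMER21A). The other 2 lay in long interspersed elements, near Gabra4 (L2) and Grm7 (Lx4B). Input at the Galr1 site was at the lowest value in the iQNP tables, 0.5 scaled tags, which gave 1012- and 631-fold over input with the commercial and homemade antibodies in iQNP, against 49.7- and 32.7-fold in TAP.

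By kind of receptor, ion channel genes had 25 iQNP sites at 20 genes and G protein-coupled receptor genes 20 sites at 16 genes. Their median normalized tags in iQNP were 20.7 and 19.8, and 15 and 13 of the sites were shared. By edgeR at an adjusted p under 0.05, tags were higher in iQNP at 11 of the 15 channel sites and 10 of the 13 G protein-coupled sites, both near the 68.4% of all shared sites, with median log2 ratios of 1.07 and 1.24. Within 1 kb of a TSS lay 8 channel sites and 4 G protein-coupled sites. These are counts without a test of the difference.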
